A study of Rattus norvegicus with 138 samples.

Results

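The 83 genes described here encode the proteins of the cytosolic ribosome. They were followed in rat tibialis anterior (TA) muscle after volumetric muscle loss (VML), here a surgical injury that removes a piece of muscle. They were taken by symbol from the 16181 gene symbols of the expression table as every Rpl or Rps gene with a number, with Rplp0, Rplp1, Rplp2 and Rpsa, leaving out S6 kinases, Rps19bp1 and listed pseudogenes. Of these 83 genes, 50 belong to the large subunit and 33 to the small subunit, and all 83 passed the filter on low values. Values are TPM, a measure of relative transcript abundance that is corrected for transcript length and scaled to the same total in every library.

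All rats were inbred male Lewis rats of about 4 months, and the labels name no transgene or deletion. The study also kept a subset of Lewis rats carrying green fluorescent protein, used as graft donors, and the labels do not tie any library to them. The 4 control muscles were the left and right TA of 2 sham rats labelled as day 0 with no repair and no running. Operated rats carried the VML defect in one TA and an unoperated contralateral TA, and muscles were taken at 3, 7, 14 and 28 days post injury (DPI) after no repair or after repair with a minced muscle graft (MMG), in which small pieces of muscle are placed into the defect, each with or without running. Unrepaired injured muscle of rats that did not run comprised 3, 8, 4 and 4 muscles at the 4 times, and the matching contralateral muscle 2, 4, 2 and 2. The controls came from another numbered rat series than all operated rats, so series and operation cannot be told apart in any comparison with control. In whole muscle, fewer cells of a type and less RNA per cell cannot be told apart.

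A cytosolic ribosome joins a small subunit, which decodes the message, to a large subunit, which forms the peptide bond, and each carries many proteins that are mostly made from single highly expressed genes. Most ribosomal protein messages begin with a short run of pyrimidines, the TOP motif, which places their translation under the growth kinase mTORC1. Striated muscle is unusual in having its own version of 1 large subunit protein: Rpl3l, which is found in heart and skeletal muscle, takes the place of Rpl3, a core protein near the peptide-forming center.

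The sequences around the start site show the genes on which the results turn: the Rpl3 and Rpl3l pair and the Rpl22 and Rpl22l1 pair, in which the partners moved unequally, Rpl41 and Rpl26, which were among the most abundant, and Rps4y2 and Rpl37a, which ranked next to Rpl3 in their increase. RefSeq (build GRCr8) gave a window for 66 of the 83 genes. Each line gives 40 bases before and 20 bases from the start on the gene's own strand, and capitals mark a pyrimidine run, defined as a C followed by at least 5 letters C or T that begins within 10 bases of the start.
Rpl3 (chr7:113507971-113508030, minus strand): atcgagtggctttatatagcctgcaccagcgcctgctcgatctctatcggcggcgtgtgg
Rpl3l (chr10:14258406-14258465, plus strand): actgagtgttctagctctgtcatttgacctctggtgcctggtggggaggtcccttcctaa
Rpl22 (chr5:168117921-168117980, plus strand): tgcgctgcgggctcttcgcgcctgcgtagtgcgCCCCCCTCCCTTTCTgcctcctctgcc
Rpl22l1 (chr2:113683156-113683215, plus strand): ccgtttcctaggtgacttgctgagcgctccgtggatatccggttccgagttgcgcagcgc
Rpl41 (chr7:1563478-1563537, minus strand): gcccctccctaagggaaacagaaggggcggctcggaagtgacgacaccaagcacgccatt
Rpl26 (chr10:54109652-54109711, plus strand): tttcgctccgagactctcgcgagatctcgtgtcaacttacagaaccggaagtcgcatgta
Rps4y2 (chr4:183000873-183000932, plus strand): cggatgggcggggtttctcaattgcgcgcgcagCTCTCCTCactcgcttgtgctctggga
Rpl37a (chr9:81748051-81748110, plus strand): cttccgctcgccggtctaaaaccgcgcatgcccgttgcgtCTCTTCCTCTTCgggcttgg

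A pyrimidine run of this kind lay at the start of 36 of the 66 genes (54.5%), against 15.8% of the 27457 genes with a window. The letter searches that follow covered both strands of the whole RefSeq window, from 250 bases before to 50 bases after the start, of which the lines above show only a part. There, the letters CCGGAAG, recognized by ETS factors, occurred in 30.3% of the ribosomal protein genes and 9.22% of all genes, and the SP1 box GGGCGG in 59.1% and 34.9%. The muscle-type E box CAGCTG, which reads alike on both strands, was in 6.06% of the ribosomal protein genes and 15.1% of all genes. The median log2 difference between injured and control muscle at 3 DPI was 1.48 for the 36 genes with the run and 1.38 for the 30 without it. These matches describe letters in the window of another build than the one used to quantify expression, and they are not sites of binding.

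Before the results, 13 of the 138 libraries were set aside because fewer than 7000 symbols exceeded 1 TPM. Those 13 libraries held 901 to 5712 symbols above 1 TPM, ribosomal RNA made up a median of 80.4% of their TPM, and ribosomal protein messages a median of 0.235%. The 125 retained libraries held 7866 to 10948 symbols, the lowest being control replicate 4. Ribosomal RNA made up 0.0515 to 16.2% of their TPM, with a median of 0.161%. The highest muscles were an unrepaired injured muscle at 7 DPI (16.2%) and an unrepaired injured muscle of a running rat at 3 DPI (14.5%). A further 9 libraries had conflicting labels and entered no group, which left 116 libraries from 114 muscles of 78 rats. Markers of muscle fibers were high in every group, so the labelled tissue was present throughout, and no pair of libraries was identical.

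In control muscle the ribosomal protein genes ranged from 0.365 TPM (Rpl39l) to 2816 TPM (Rplp1), with a median of 693 TPM, and 59 of the 83 exceeded 500 TPM. The highest included Rplp1, a protein of the stalk that recruits elongation factors, at 2816 TPM, Rps29 at 2041 TPM, Rpl41, the smallest ribosomal protein, at 1421 TPM, and Rpl26 at 1279.6 TPM. Rpl3 stood among the 4 genes under 100 TPM, at 55.8 TPM, whereas its muscle paralog Rpl3l was at 743 TPM.

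Ribosomal protein messages made up 5.70, 5.77, 5.83 and 6.53% of all TPM in the 4 control muscles. In unrepaired injured muscle at 3 DPI the share was 13.3, 14.7 and 17.3%, so that the lowest injured muscle exceeded the highest control. At 7 DPI the 8 injured muscles ranged from 9.81 to 14.8% with a median of 12.0%, again without overlap. At 14 DPI the share was 7.00 to 8.09% and at 28 DPI 6.82 to 8.57%, still above all 4 controls. Contralateral muscle held 6.52 and 7.61% at 3 DPI, 6.67 to 8.51% at 7 DPI, 4.94 and 5.21% at 14 DPI and 5.65 and 5.71% at 28 DPI. Both muscles at 14 DPI lay below all controls, and at 28 DPI one muscle lay below the lowest control and the other just above it.

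**Figure D1:**
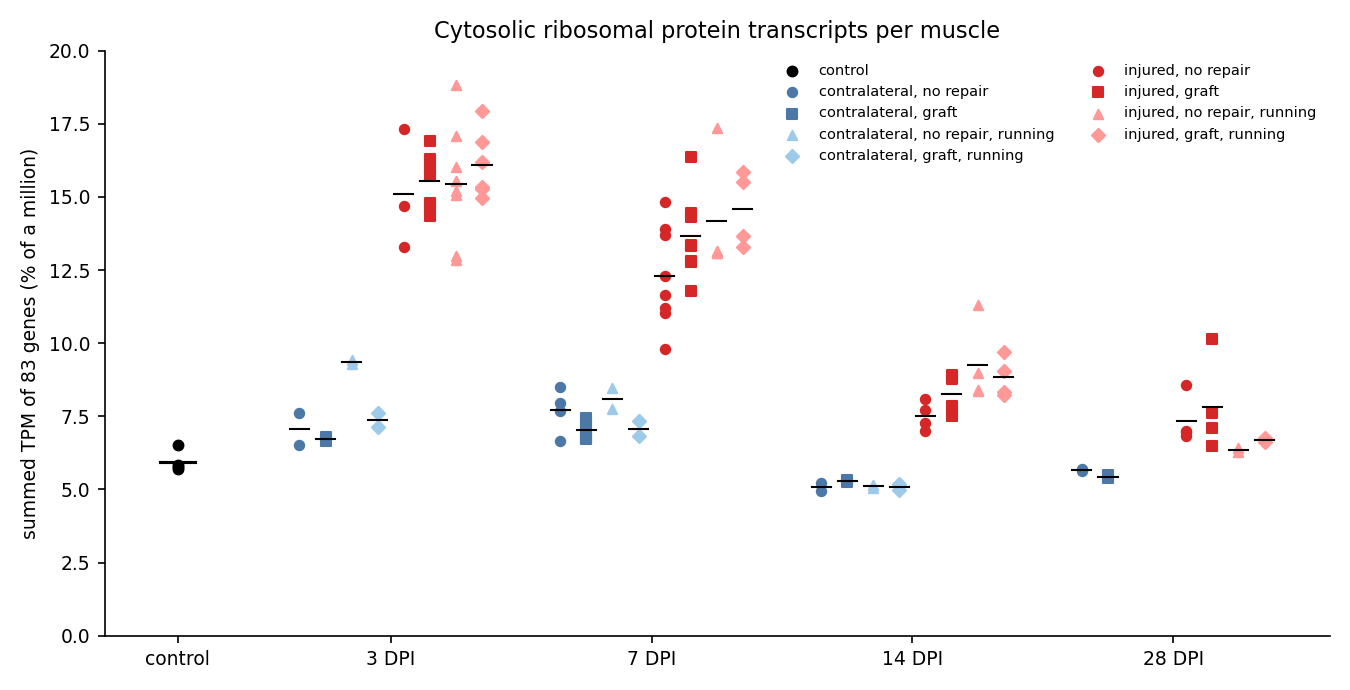
Summed TPM of the 83 ribosomal protein genes as a percentage of all TPM, for each of the 114 muscles (points) by time and arm, with black bars at group means. Injured muscles at 3 DPI lie between 12.8 and 18.8% in all 4 arms, above control muscles at 5.70 to 6.53%; the share is of deposited TPM and depends on the other transcripts in the muscle.

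A share of TPM rises when other abundant messages fall, and the messages of the adult sarcomere did fall. The 28 tested sarcomere genes had a median log2 difference of -2.08 at 3 DPI, with 24 lower and 1 higher past both thresholds. Of all tested genes 4.24% were lower and 48.3% higher by the same rule. The listed sarcomere genes held 34.1 to 41.2% of TPM in control muscle and 6.89 to 9.47% in injured muscle at 3 DPI. For this reason each comparison is given beside the median of all 11328 tested genes, which itself was 0.96, 0.91, 0.53 and 0.52 above control at 3, 7, 14 and 28 DPI on the log2 scale, and beside the same comparison after median-of-ratios size factors had been applied. Differences are on the scale log2(TPM + 1), and a gene was called when the adjusted p-value of the limma test was under 0.05 and the log2 difference exceeded 1 in size.

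At 3 DPI, 75 of the 83 ribosomal protein genes were called above control and 1, Rpl3l, below it, against 48.3% and 4.24% of all tested genes. By the adjusted p-value alone 82 were higher, with 74.6% of all genes higher. Their median log2 difference was 1.39, which is 0.43 above that of all genes, and 77 of the 83 lay above the all-gene median. After size factors were applied, the median was 0.25, and 33 genes were higher and 3 lower by adjusted p-value, where all genes split into 43.8% higher and 37% lower. Past both thresholds on that scale were 4 higher and 1 lower, beside 24.2% and 16.6% of all genes. The genes just over the threshold were Rpl35 at 1.01, Rpl36al at 1.02 and Rpl10 at 1.03. The smallest increase among the 82 genes that rose was that of Rplp1, at 0.66 (SE 0.12, adjusted p = 2.99e-07), which became -0.49 with size factors.

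At 7 DPI the increase was smaller relative to other genes. Of the 83 genes, 48 were called higher and 1 lower, beside 45.6% and 2.42% of all genes, and 82 were higher by adjusted p-value alone, beside 78.8%. The median was 1.10, which is 0.18 above that of all genes. On the size-factor scale it was 0.01, with 15 genes higher and 18 lower, beside 45.2% and 38.1% of all genes, and 4 higher and 1 lower past both thresholds, beside 21.6% and 14%. Rps15a and Rpl6, both at 1.03, and Rpl5 at 1.06 lay just over the threshold.

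At 14 and 28 DPI most ribosomal protein genes lay under the all-gene median, with 24 and 20 of the 83 above it. At 14 DPI 4 genes were called higher (Rpl3, Rps4y2, Rpl37a and Rpl39l) and none lower, where 25% of all genes were called higher. By adjusted p-value alone 57 were higher, beside 65.6% of all genes, and 2 were lower, Rpl3l and Rpl22l1. Neither of the 2 passed with controls averaged per rat (51 higher, 0 lower) or with no filter on low values. At 28 DPI Rpl3 and Rpl37a were called, beside 21.1% of all genes. The calls of Rpl37a at 14 and 28 DPI hold for the symbol alone, as its sum with a pseudogene copy overlapped control. By adjusted p-value 59 of the 83 genes were higher at 28 DPI, beside 67.9% of all genes. The medians were 0.42 and 0.35 as deposited, which lie 0.11 and 0.16 under the all-gene medians (differences of -0.11 and -0.16), and with size factors they turned to -0.28 and -0.32. After size factors 3 genes were higher and 42 lower at 14 DPI, beside 38% and 35.7% of all genes, and 3 were higher and 47 lower at 28 DPI, beside 35.8% and 32.6%.

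**Figure D2:**
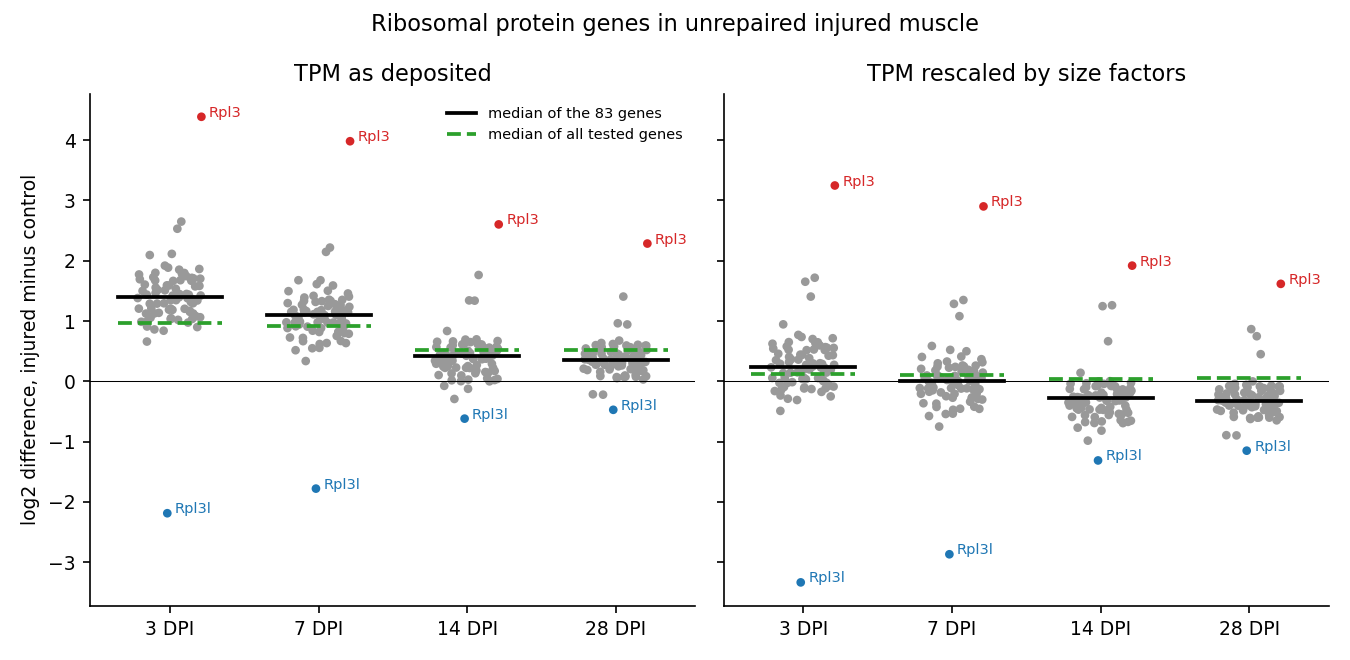
Log2 difference between unrepaired injured and control muscle for each of the 83 genes (points) at 4 times, from TPM as deposited (left) and after size factors (right), with the median of the 83 genes as a black line and that of all tested genes as a dashed green line. As deposited the gene medians are 1.39, 1.10, 0.42 and 0.35, and with size factors 0.25, 0.01, -0.28 and -0.32, whereas Rpl3 stays highest and Rpl3l lowest at all 4 times on both scales.

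Against contralateral muscle, which shares the rat series of the injured muscle, the increase at 3 DPI was larger than that of the median gene. Here 55 ribosomal protein genes were called higher and 1 lower, beside 32.3% and 5.92% of all genes, and 82 were higher by adjusted p-value alone, beside 56%. Their median was 1.10, which is 0.56 above that of all genes, and 82 of the 83 lay above the all-gene median. Size factors left the median above zero at 0.52 (0.07 for all genes), with 60 higher and 1 lower, by adjusted p-value, beside 38.9% and 33.6% of all genes, but the genes past both thresholds fell to 6 higher and 1 lower, beside 20.4% and 13.4%. Rpl29 and Rps4x, at 1.00 and 1.01, lay just over the threshold.

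At 7 DPI the order was the opposite. The median of the ribosomal protein genes was 0.69 above contralateral muscle while that of all genes was 0.91, a difference of -0.22, and 13 of the 83 lay above the all-gene median. The called genes were 9 higher and 1 lower, beside 45.3% and 2.01% of all genes, and 81 were higher by adjusted p-value, beside 80%. Under size factors it turned to -0.40, with 2 genes higher and 66 lower, by adjusted p-value, beside 43.5% and 37.3% of all genes, and 1 higher and 2 lower past both thresholds, beside 18.5% and 12.7%. The 9 genes were led by Rpl3 at 3.36, Rps4y2 at 1.75 and Rpl41 at 1.15, and included, closest to the threshold, Rpl39l and Rps27a, both at 1.01, and Rpl39 at 1.04.

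At 14 DPI the median was 0.61 and at 28 DPI 0.39, near the all-gene medians of 0.50 and 0.38. The called genes were Rpl3 and Rps4y2 at 14 DPI and Rpl3 alone at 28 DPI, beside 20.9% and 13.1% of all genes. By adjusted p-value alone 75 and 53 genes were higher, beside 60.9% and 47.1% of all genes. On the size-factor scale both medians turned negative, at -0.05 and -0.08, and the ribosomal protein genes split into 1 higher and 6 lower at both times, beside 29.4% higher and 29.4% lower of all genes at 14 DPI and 24.2% and 22.7% at 28 DPI. Leaving out injured replicate 1 at 14 DPI left 1 called gene.

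Within unrepaired injured muscle, 47 genes were called lower and 1 higher at 28 than at 3 DPI, where 24.3% of all genes were called lower, and the median was -1.04 against -0.44 for all genes. It was -0.57 with size factors, still under the all-gene median of -0.04, while the called genes fell to 4 lower and 1 higher, beside 13.6% and 9% of all genes. The largest falls were those of Rpl3 (-2.10), Rps4y2 (-1.71) and Rpl22l1 (-1.51), and the gene that rose was Rpl3l, by 1.72. The injury effect measured against contralateral muscle was itself more positive at 3 than at 28 DPI for 73 of the 83 genes and more negative for 1, Rpl3l (-1.83 at 3 DPI and -0.39 at 28 DPI), where 37.4% of all tested genes differed in either direction.

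The pair Rpl3 and Rpl3l carried the greatest change in the set. Rpl3 was at 49.3, 56.0, 58.5 and 59.3 TPM in the controls and at 1033, 1177 and 1370.0 TPM in the injured muscles at 3 DPI, a ratio of means of 21.4. At 7 DPI it ranged from 621 to 1093 TPM, at 14 DPI from 287 to 393 TPM, and at 28 DPI from 225.5 to 360.1 TPM. The lowest of these muscles was above the highest control at every time. The log2 differences were 4.39 (SE 0.17, adjusted p = 8.97e-39), 3.98 (SE 0.14, adjusted p = 5.57e-43), 2.60 (SE 0.16, adjusted p = 5.48e-26) and 2.29 (SE 0.16, adjusted p = 3.01e-22) at 3, 7, 14 and 28 DPI, with limma and Benjamini-Hochberg adjustment over all tested genes. After size factors they were 3.25, 2.90, 1.92 and 1.62.

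Rpl3l moved the other way. Its level was 707.5 to 825 TPM in the controls and 114, 186 and 199.6 TPM in the injured muscles at 3 DPI, with no overlap. At 7 DPI the range was 142 to 387 TPM, at 14 DPI 452 to 529.9 TPM and at 28 DPI 489 to 583 TPM. The log2 differences were -2.19 (SE 0.31, adjusted p = 9.14e-10) at 3 DPI and -1.78 (SE 0.25, adjusted p = 5.07e-10) at 7 DPI. They were -0.62 (adjusted p = 0.0479) at 14 DPI and -0.47 (adjusted p = 0.134) at 28 DPI, where the value as deposited missed the threshold of 0.05. The size-factor values were -3.34, -2.87, -1.31 and -1.15, each with an adjusted p-value under 0.05 by limma.

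Expressed as a percentage of the pair, a ratio within each muscle that no scaling of the whole library can alter, Rpl3 held 5.64 to 7.73% in control muscle. At 3 DPI it held 84.7, 85.5 and 92.3% in unrepaired injured muscle. At 7 DPI the range was 61.6 to 88.5%, at 14 DPI 35.1 to 46.5% and at 28 DPI 27.9 to 41.4%. In contralateral muscle Rpl3 held 12.0 and 21.6% at 3 DPI, 7.75 to 9.49% at 7 DPI, 9.41 and 9.57% at 14 DPI, and 8.20 and 8.46% at 28 DPI. At 28 DPI the lowest of the 12 injured muscles of all 4 arms (25.4%) was above the highest of the 4 contralateral muscles (8.62%), which came from the arms without running. The sum of the pair averaged 799 TPM in control, 1360.1 TPM at 3 DPI, 1132 TPM at 7 DPI, 830.0 TPM at 14 DPI and 815.5 TPM at 28 DPI.

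**Figure D3:**
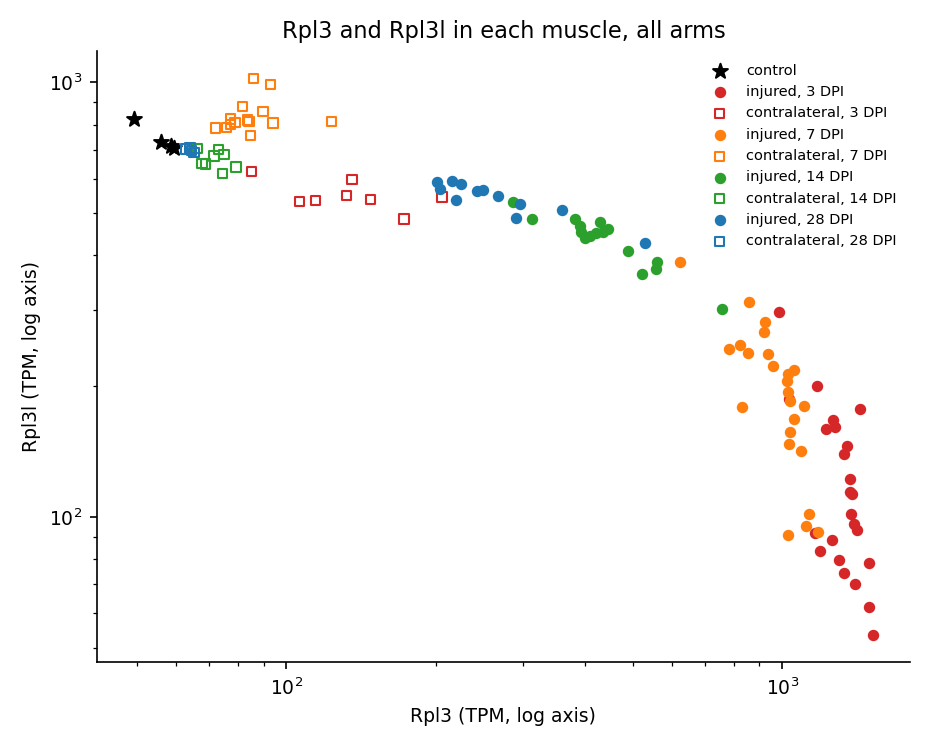
Rpl3 against Rpl3l in TPM, both on log axes, for each of the 114 muscles of all arms, with injured muscle as filled circles, contralateral muscle as open squares and control muscle as stars, colored by time. Control muscle lies at 49.3 to 59.3 TPM of Rpl3, and injured muscle at 3 DPI at 985 to 1523 TPM of Rpl3 and 53.6 to 296 TPM of Rpl3l, with injured muscle at 14 and 28 DPI in between.

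Markers of other cells also differed between injured and control muscle. Of the 10 listed leukocyte markers 9 were in the table, and their summed level was 14.2 to 22.4 TPM in control muscle and 1759 to 2581 TPM in injured muscle at 3 DPI, then 286 to 1188 TPM, 209 to 274 TPM and 112.5 to 276 TPM at the later times. The 6 fibroblast markers, among them the collagens Col1a1 and Col3a1, summed to 64.7 to 213 TPM in control and to 4055 to 6899 TPM, 5148 to 14754 TPM, 4182 to 5810.0 TPM and 2063 to 3166 TPM at the 4 times. The 4 endothelial markers summed to 34.6 to 71.1 TPM in control, 110.2 to 169 TPM at 3 DPI and 129 to 204 TPM at 7 DPI, and the 4 erythroid markers to 1847 to 5137 TPM in control and 6409 to 88174 TPM at 3 DPI, with overlap with control at 7, 14 and 28 DPI. The 6 muscle fiber markers, all of which are also on the sarcomere list, summed to 145329 to 183534 TPM in control and 29996 to 39330 TPM at 3 DPI (39329.7 before rounding). None of these markers was at 0 in the control group or in unrepaired injured or contralateral groups without running. Their part in the changes of Rpl3, Rpl3l and the other ribosomal protein genes was not tested.

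Other paralogs differed from their partners to a smaller degree. Rpl22l1, the paralog of the RNA-binding protein Rpl22, was at 170.3 to 172 TPM in the controls, at 357, 432 and 481 TPM at 3 DPI, at 154 to 298 TPM at 7 DPI and at 125 to 150.5 TPM at 14 DPI. At 3 DPI it rose with Rpl22, by 1.29 against 1.39, but this was 0.14 and 0.25 with size factors. At 7 DPI it stood at 0.34 (SE 0.12, adjusted p = 0.00622) against 1.10 for Rpl22, which became -0.75 and 0.01 with size factors, and at 14 DPI at -0.29 (SE 0.14, adjusted p = 0.0468) against 0.38, which became -0.98 and -0.32. The share of Rpl22l1 in the pair, which no scaling of the library alters, was 28.9 to 31.2% in control, 26.7 to 29.3% at 3 DPI, 15.8 to 24.0% at 7 DPI, 19.2 to 22.5% at 14 DPI and 19.8 to 21.8% at 28 DPI. All muscles at 7, 14 and 28 DPI lay below all controls, whereas those at 3 DPI overlapped them. Contralateral muscle was also below the controls at 7 DPI (19.8 to 26.1%) and 28 DPI (24.8 and 25.2%), but not at 14 DPI (31.1 and 31.2%).

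Rps4y2, a paralog of Rps4x whose RefSeq window lies on chromosome 4, was at 1.70, 2.10, 2.64 and 2.72 TPM in the controls and at 13.2, 20.8 and 26.8 TPM at 3 DPI. Its log2 difference was 2.65 (SE 0.25, adjusted p = 8.88e-17), against 1.21 for Rps4x. Rpl39l, the paralog of Rpl39, was at 0, 0.25, 0.42 and 0.79 TPM in the controls and at 3.78, 4.71 and 6.08 TPM at 3 DPI, a log2 difference of 2.11 against 1.69 for Rpl39 on the log2(TPM + 1) scale. Rps27l, the paralog of Rps27, was at 107 to 135 TPM in the controls and 210.2 to 248 TPM at 3 DPI, a difference of 0.91 against 1.15. Rpl36al rose by 1.02 and Rpl36a by 1.60. Differences on the size-factor scale at 3 DPI were 1.72 and 0.06 for Rps4y2 and Rps4x, 1.65 and 0.54 for Rpl39l and Rpl39, -0.23 and 0.00 for Rps27l and Rps27, and -0.13 and 0.46 for Rpl36al and Rpl36a. Near-identical copies can share reads in the quantification, so the split within the Rps4, Rpl39 and Rpl36a pairs is uncertain.

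Rpl37a is uncertain for the same reason. The symbol was at 17.9 to 34.5 TPM in the controls, far under most large subunit genes, while a listed pseudogene copy, Rpl37a-ps1, was at 1281 to 1814 TPM. At 3 DPI Rpl37a was at 127, 152 and 154 TPM, a log2 difference of 2.53 (SE 0.31, adjusted p = 5.31e-12). The sum of both symbols was 1308 to 1849 TPM in control and 2586 to 3334 TPM at 3 DPI. In unrepaired injured muscle at 14 and 28 DPI it was 1608 to 1744 TPM and 1505 to 1924 TPM, which overlapped control. In contralateral muscle at 7 DPI the symbol Rpl37a was at 94.9 to 183 TPM, above its control level in all 4 muscles, and the sum of both symbols was 1796 to 2720.4 TPM, which overlapped control. At 14 DPI the contralateral sum was 1245 and 1280.5 TPM, below all controls, although the symbol Rpl37a by itself was higher.

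Among the genes with roles beyond the core, Rps6, the substrate of S6 kinases, was at 614 to 644 TPM in control and 1776 to 2314 TPM at 3 DPI, a log2 difference of 1.67 that fell to 0.53 at 28 DPI. Rpsa, also known as the laminin receptor, differed by 1.38 at 3 DPI and 0.35 at 28 DPI, and Rps27a, which is made as a fusion with ubiquitin, by 1.70 and 0.59. The stalk proteins differed by 1.42 (Rplp0), 1.32 (Rplp2) and 0.66 (Rplp1) at 3 DPI. With size factors, Rps6 was at 0.52 and -0.14, Rpsa at 0.23 and -0.32, Rps27a at 0.55 and -0.08, Rplp0 at 0.27 and -0.38, Rplp2 at 0.17 and -0.53, and Rplp1 at -0.49 and -0.89 at 3 and 28 DPI.

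Contralateral muscle was not at control levels at the early times. Its leukocyte markers summed to 45.2 to 102 TPM at 3 DPI and 29.8 to 42.9 TPM at 7 DPI. Its fibroblast markers summed to 527 to 1191 TPM and 241 to 437 TPM at these times. At 14 and 28 DPI the leukocyte sums were 36.99 to 46.55 TPM and 35.79 to 36.05 TPM. The fibroblast sums were then 334 to 610 TPM and 329 to 361 TPM. All of these sums were above the control ranges, and their part in the differences was not tested. At 3 DPI 32 genes were higher by adjusted p-value and none lower, where 54.1% of all genes differed, and the member median of 0.28 was under the all-gene median of 0.43. It turned to -0.29 with size factors, with 0 higher and 13 lower, beside 10.3% and 10.7% of all genes. The 4 control muscles came from 2 rats, and the number of higher genes was 17 with controls averaged per rat and 0 when only these groups were modelled. At 7 DPI 48 genes were higher and none lower, where 7.05% of all genes differed, and the median of 0.39 exceeded that of all genes (0.03), as it did with size factors (0.40). The number of higher genes was 21 with controls averaged per rat and 11 when only these groups were modelled. No share of all genes was computed for these alternatives. The increases were led by Rpl37a at 2.44 (SE 0.29, adjusted p = 2.28e-09), the 1 gene called, while Rpl3 differed by 0.62 (SE 0.16, adjusted p = 0.00628). Rpl3 was higher at 3 DPI as well, by 1.00 (SE 0.19, adjusted p = 4.03e-05), at 85.1 and 148 TPM, but its adjusted p-value was 0.0507 with size factors.

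At 14 DPI 5 genes passed the adjusted p-value between contralateral and control muscle, beside 2.65% of all genes, and 0 did with controls averaged per rat or with only these groups modelled. The 5 were Rpl37a, with a higher level of the symbol but not of its sum with the pseudogene copy, and Rps27, Rpl27, Rpl36 and Rpl24, named because they complete the 5, at -0.64, -0.60, -0.49 and -0.43. At 28 DPI none passed the adjusted p-value by limma, beside 0.415% of all genes, and the median was -0.05. At an unadjusted p-value under 0.05 there were 3, beside 11.6% of all genes. Size factors also gave none, with 24 at an unadjusted p-value under 0.05, beside 17.7% of all genes, and a median of -0.26. The single call of Rpl37a at 3 DPI was lost without contralateral replicate 1, and the number of calls was 2 without control replicate 2. At 14 DPI the call of Rpl37a was lost without control replicate 1 or without either contralateral muscle.

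Between grafted and unrepaired injured muscle no ribosomal protein gene was called at any time. The graft comparison asks whether transplanted minced muscle alters the response, and it had 7 against 3 muscles at 3 DPI, 8 against 8 at 7 DPI, and 4 against 4 at 14 and 28 DPI. Ribosomal protein messages held 14.4 to 16.9%, 11.8 to 16.4%, 7.52 to 8.90% and 6.48 to 10.1% of TPM in grafted muscle at the 4 times, each overlapping the unrepaired range. By limma no gene passed the adjusted p-value at 3, 14 or 28 DPI, beside 0.0441%, 0.0441% and 0% of all genes. At 7 DPI Rpl14 alone of the 83 passed, at 0.27 (SE 0.09, adjusted p = 0.0471), beside 8.19% of all genes. At an unadjusted p-value under 0.05 there were 0, 41, 1 and 0 genes at the 4 times, beside 17.3%, 27%, 5.23% and 1.24% of all genes. No gene passed the adjusted p-value at any time with size factors, with 2, 0, 0 and 0 at an unadjusted p-value under 0.05, beside 10.7%, 19.1%, 2.6% and 1.31% of all genes. The median bounds of the 95% interval of a gene's log2 difference ran from -0.18 to 0.28 at 3 DPI, 0.00 to 0.33 at 7 DPI, -0.09 to 0.37 at 14 DPI and -0.15 to 0.32 at 28 DPI.

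Running was compared with no running in unrepaired injured muscle, and here too no ribosomal protein gene was called. The running muscles numbered 8, 4, 4 and 2. No ribosomal protein gene passed the adjusted p-value by limma at any time, beside 0.124%, 0%, 0.0353% and 0.0265% of all genes. The smallest adjusted p-values by limma were 0.136, 0.117, 0.187 and 1, and 3, 46, 68 and 6 genes had an unadjusted p-value under 0.05, beside 14.5%, 21.3%, 9.96% and 3.79% of all genes. With size factors, also with no gene passing, these numbers were 2, 36, 3 and 1, beside 16.9%, 27.1%, 5.88% and 4.49%. The medians were 0.03, 0.20, 0.29 and -0.19, against 0.07, 0.01, 0.11 and -0.08 for all genes. They were -0.06, 0.22, 0.17 and -0.10 with size factors, so that the median at 3 DPI changed sign. The median bounds of the 95% interval ran from -0.19 to 0.25, 0.01 to 0.41, 0.07 to 0.53 and -0.49 to 0.09. For Rpl3 the values were 0.10, 0.06, 0.54 and -0.44, none past the threshold.

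Contralateral muscles of unrepaired running rats at 3 DPI held 9.28 and 9.42% ribosomal protein messages, against 6.52 and 7.61% without running, 6.67 and 6.80% with a graft, and 7.12 and 7.62% with a graft and running. Rpl3 held 26.3 and 27.4% of its pair in the former, against 12.0 to 21.6% in the 6 other contralateral muscles at 3 DPI. These values are given without a test.

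**Figure D4:**
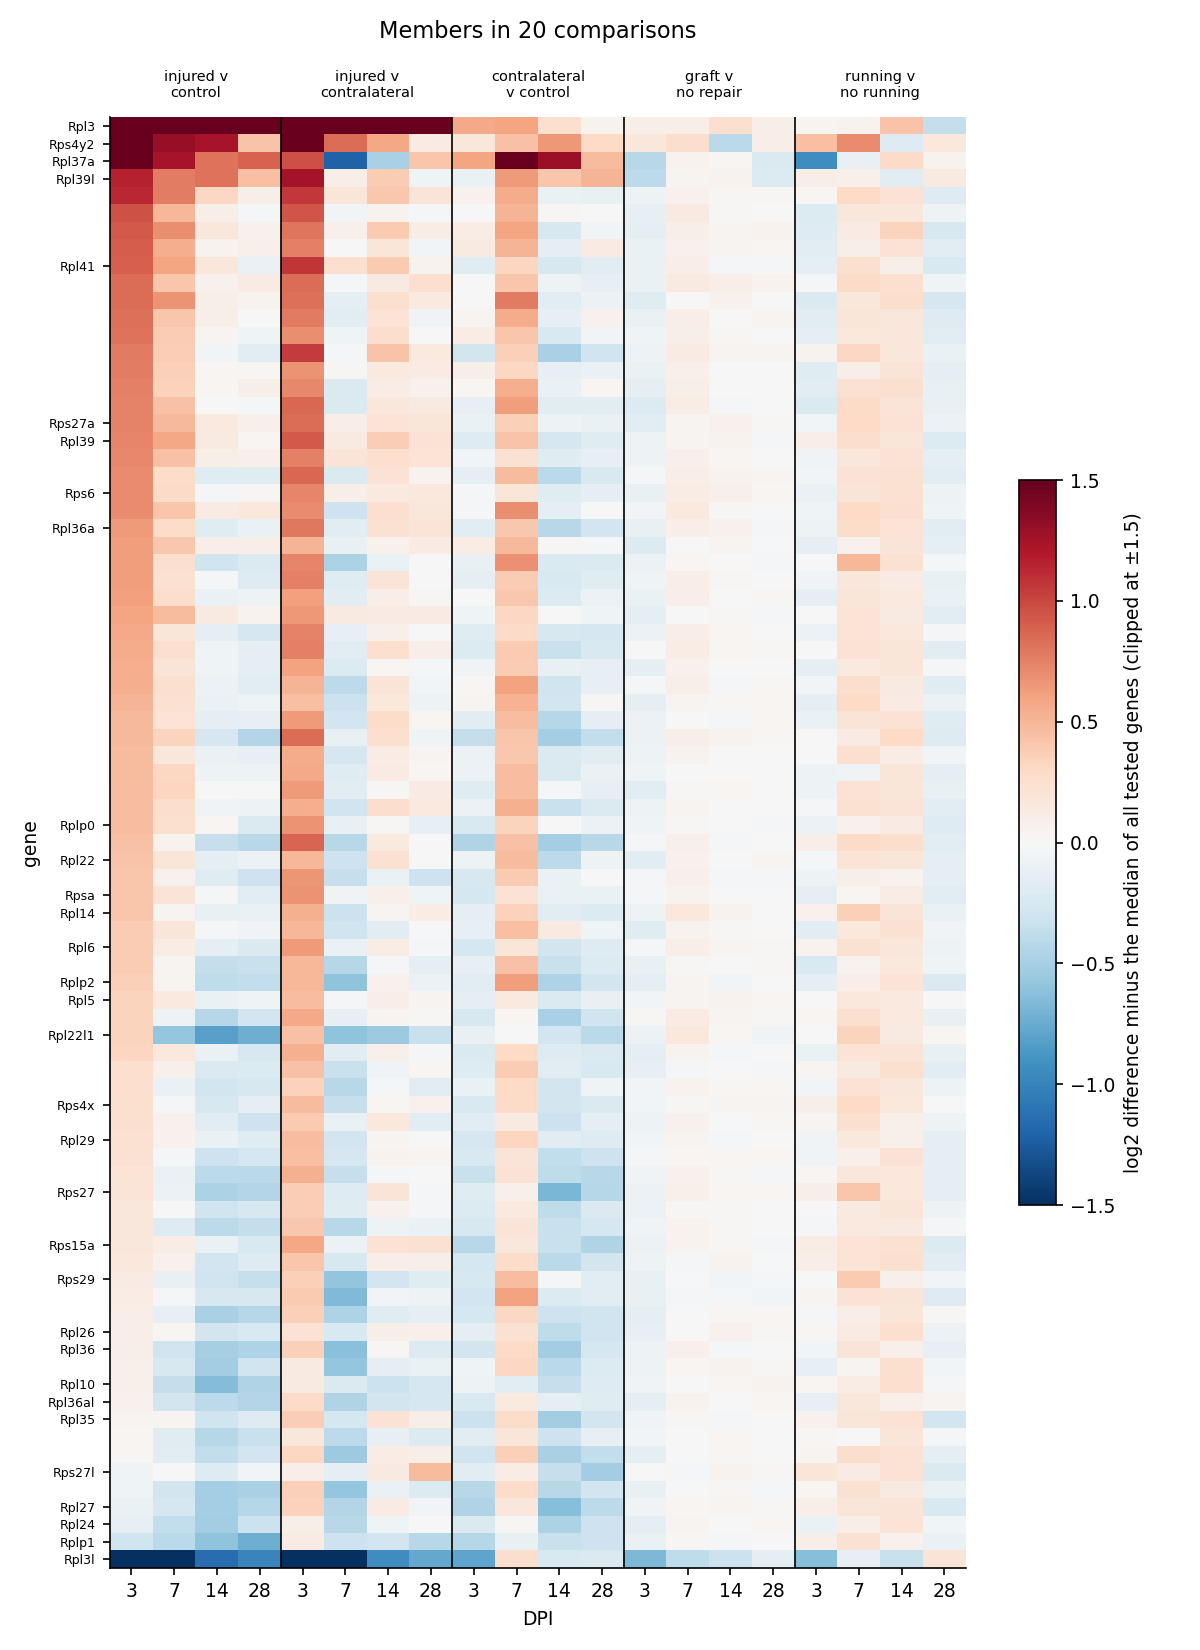
Log2 difference minus the median of all tested genes for the 83 genes (rows, ordered by the difference at 3 DPI against control) in 20 comparisons (columns, by DPI), with red above and blue below other genes and color clipped at 1.5 in either direction, and row labels only for genes named in the text. Most genes are red for injured muscle at 3 DPI and for contralateral against control at 7 DPI, where 77 and 81 of the 83 lie above the all-gene median, and pale for graft and running.

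The rest of the translation machinery was less uniform. Of 51 tested ribosome biogenesis genes, 29 were called higher than control at 3 DPI and none lower, beside 48.3% and 4.24% of all genes, with a median of 1.07 that is 0.11 above that of all genes. They were led by Myc, a transcription factor that drives ribosome production, at 3.47, Fbl, the methyltransferase of ribosomal RNA, at 2.41, and Polr1d, a shared subunit of RNA polymerases I and III, at 1.96. Rrn3, an initiation factor for RNA polymerase I, stood at -0.19 (adjusted p = 0.105). On the size-factor scale the list median was -0.02, under the all-gene median of 0.12, and the called genes fell to 2 higher (Myc at 2.64 and Fbl at 1.30) and 3 lower, beside 24.2% and 16.6% of all genes.

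Elongation factors and other TOP messages had a median of 0.81 at 3 DPI, 0.16 under that of all genes (a difference of -0.16), with 9 of 21 called higher and none lower, where 48.3% of all genes were called higher. With size factors the list median was -0.34, with 4 called higher and 3 lower, beside 24.2% and 16.6% of all genes. The partners of elongation factor 1A moved unequally, as the Rpl3 pair did. Eef1a1, the general form, averaged 234 TPM in control and 5225 TPM at 3 DPI, a difference of 4.47 (SE 0.19, adjusted p = 1.04e-36), and Eef1a2, the form of adult muscle and neurons, averaged 1238 and 626 TPM, a difference of -0.99 (SE 0.22, adjusted p = 3e-05). Pabpc1, the poly(A)-binding protein, rose by 4.07, and Pabpc4 fell by 0.61. With size factors Eef1a1 was at 3.32, Eef1a2 at -2.14, Pabpc1 at 2.94 and Pabpc4 at -1.76.

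Of 32 initiation factors 8 were called higher at 3 DPI and none lower, beside 48.3% of all genes called higher, and the median of 0.72 was under the all-gene median of 0.96. With size factors it turned to -0.42, with 1 called higher and 9 lower, beside the same 24.2% and 16.6% of all genes. Eif4a1, the helicase of the cap-binding complex, rose by 3.16, and its paralog Eif4a2 fell by 0.43 (SE 0.19, adjusted p = 0.0307). Among 23 genes of mTORC1 and the S6 kinases, 6 were called higher and 1 lower, beside 48.3% and 4.24% of all genes. The list median of 0.58 was likewise under that of all genes. It turned to -0.56 with size factors, with 2 called higher and 6 lower, beside the same shares of all genes. Rps6ka1, one of the kinases of Rps6, rose by 2.85 and Rps6ka2 fell by 1.75. Eif4a1, Eif4a2, Rps6ka1 and Rps6ka2 were at 2.02, -1.57, 2.01 and -2.86 with size factors.

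The 70 genes with a mitochondrial ribosomal protein symbol, Mrpl or Mrps with a number, did not follow the cytosolic ones. Their median was 0.03 at 3 DPI and 0.08 at 7 DPI, which lie 0.93 and 0.84 under the all-gene medians (differences of -0.93 and -0.84), with 1 called higher and 1 lower at 3 DPI, beside 48.3% and 4.24% of all genes. By adjusted p-value 25 were higher and 21 lower at 3 DPI, and 29 and 22 at 7 DPI. Of all genes 74.6% and 78.8% were higher by adjusted p-value at these times. The share lower was not computed. The highest was Mrpl52 at 1.09 and the lowest Mrps36 at -1.12. With size factors none was higher and 68 and 66 of the 70 were lower by adjusted p-value, beside 37% and 38.1% of all genes lower. Within the cytosolic set, the small subunit had a median of 1.53 and the large subunit of 1.33 at 3 DPI, and 1.17 and 1.00 at 7 DPI. These 4 medians were 0.39, 0.18, 0.08 and -0.09 with size factors.

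**Figure D5:**
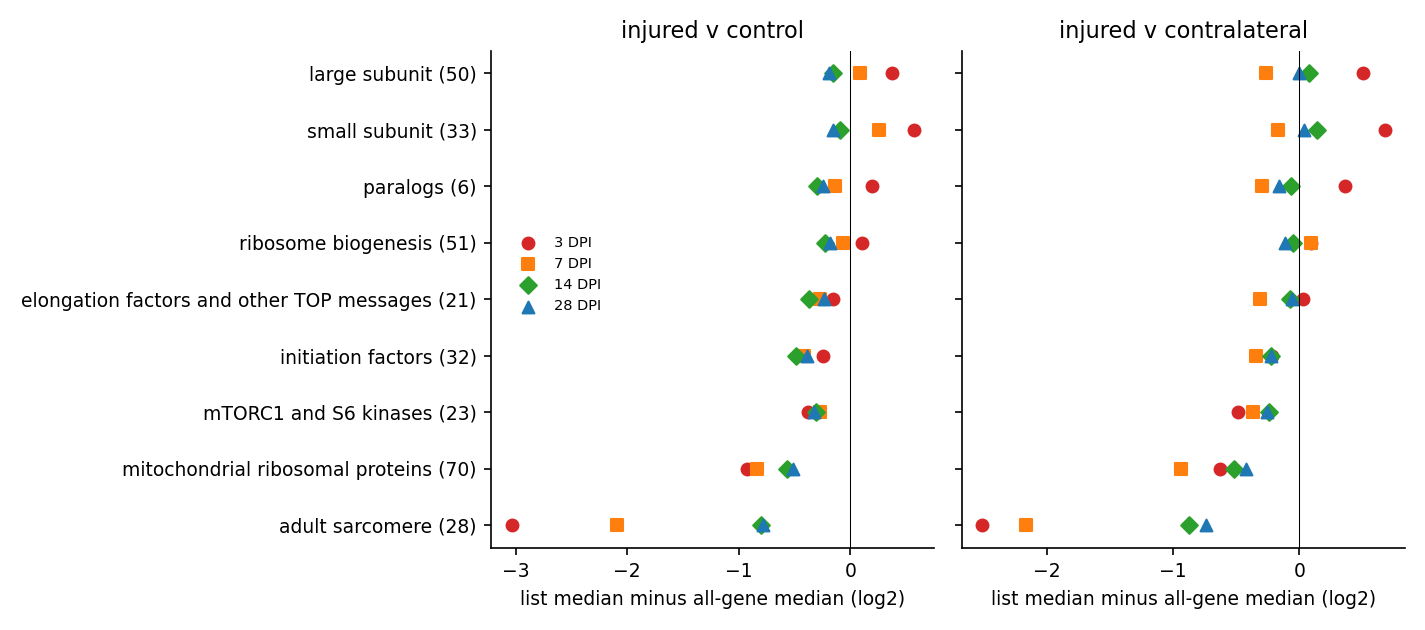
Median log2 difference of each gene list minus the median of all tested genes, for unrepaired injured muscle against control (left) and against contralateral muscle (right), with one symbol for each time and the number of tested genes in brackets. Both ribosomal subunits lie right of zero at 3 DPI (0.37 and 0.57 against control), mitochondrial ribosomal proteins lie left of it at every time, and the paralogs are also counted in their subunit.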

How the data were processed

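RNA-seq was measured in whole TA muscle. The authors quantified reads with Kallisto against the rat genome (build 6.0, GenBank annotation) and deposited TPM per gene symbol; read depth is not in the table, so no counting error could be given. Libraries with fewer than 7000 symbols above 1 TPM were dropped, libraries of a muscle were averaged, and groups were taken from the labels. In R 4.3.3, limma 3.58.1 (trend) was fitted on log2(TPM + 1) to 31 groups at once (83 residual degrees of freedom) for 11328 genes with a group mean above 1 TPM, with Benjamini-Hochberg adjustment, and tested on simulated data. Replicates were muscles, and the 2 muscles of each control rat were counted separately, so p-values measure the spread between muscles. Muscles of the same rat in different groups had a mean residual correlation of 0.0944 over 34 pairs, and 15 pairs exceeded 0.1. For muscles of different rats the mean was -0.000204 over 6195 pairs, of which 1607 exceeded 0.1. The left and right muscles of a control rat share a group and were not among these pairs.

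The members, gene lists and tests were chosen with earlier results of these data known. Genes named were the 5 highest in control, the 3 highest and 3 lowest called per comparison with any called against the median, the paralog pairs, Rplp0, Rplp1, Rplp2, Rps6, Rpsa and Rps27a, and the 3 extremes in each direction of every other list; exceptions are marked, and some genes the rule named are not reported here. Alternatives covered scaling, pseudocount, filter, dropped libraries, model and pairing. Size factors ranged from 0.380 to 1.55. Promoter letters came from RefSeq, in Python 3 with pandas.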

Additional observations from a re-analysis of the deposited data

Results flagged for a closer look

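In each group of 4 to 10 muscles, the highest and the lowest muscle were compared with the nearest other muscle for 4 measures that share values, 64 group tests in all, of which 10 were past Dixon's 95% limit; chance alone marks about 1 in 20. For the share of ribosomal protein messages, control replicate 4 stood at 6.53% where the next control was at 5.83%. This is the library with the fewest detected symbols of those retained. Unrepaired injured replicate 3 at 28 DPI stood at 8.57% where the next was at 7.01%, and unrepaired running replicate 3 at 7 DPI at 17.4% where the next was at 13.2%.

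For Rpl3 as a percentage of its pair with Rpl3l, unrepaired running replicate 2 at 14 DPI stood at 71.5% where the next muscle was at 49.2%, with Rpl3 at 756 TPM and Rpl3l at 301.0 TPM, both also apart from the rest. Unrepaired running replicate 6 at 3 DPI stood at 76.9% where the next lowest of 8 was at 91.8%, with Rpl3l at 296 TPM against 122.5 TPM. Unrepaired injured replicate 7 at 7 DPI stood at 61.6% where the next lowest of 8 was at 76.8%, with Rpl3l at 387 TPM against 248 TPM.

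The injury effect against contralateral muscle differed between 3 and 28 DPI for 74 of the 83 genes by limma with Benjamini-Hochberg adjustment over all genes, 73 of them more positive at 3 DPI and 1, Rpl3l, more negative. The median difference of effects was 0.71 for the 83 genes and 0.13 for all genes. It was 1.29 for Rpl3 (SE 0.28, adjusted p = 0.000153) and -1.44 for Rpl3l (SE 0.51, adjusted p = 0.0203).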

How the results depend on the processing

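Counts below are members called in either direction and medians are log2 differences of the 83 genes. Apart from size factors and the adjusted p-value alone, no share of all genes was computed for these alternatives. Their counts are therefore not set beside other genes. Rpl3 kept its direction and its call against control and against contralateral muscle under all alternatives run, and Rpl3l kept its direction. With size factors the medians against control at 3, 7, 14 and 28 DPI were 0.25, 0.0069, -0.28 and -0.32, with 5 and 5 called at 3 and 7 DPI. Against contralateral muscle they were 0.52, -0.40, -0.055 and -0.081, with 7 and 3 called at 3 and 7 DPI. For contralateral against control they were -0.29 (0 called) at 3 DPI and -0.26 at 28 DPI, for graft -0.11 at 3 DPI and 0.0062 at 14 DPI, and for 28 against 3 DPI -0.57 with 5 called. Rescaled without the sarcomere genes, an alternative chosen after seeing the data, the medians against control were 0.86, 0.68, 0.28 and 0.21, with 31 and 11 called at 3 and 7 DPI. Against contralateral muscle they were 0.71, 0.31, 0.44 and 0.26, with 13, 3 and 1 called at 3, 7 and 14 DPI, for contralateral against control at 3 DPI 0.14 with 0 called, and for 28 against 3 DPI -0.66 with 7 called. The all-gene medians of the rescaled fit are not reported here, and the cause of these shifts was not tested.

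With all libraries kept, called genes against control were 36, 8 and 1 at 3, 7 and 28 DPI. Against contralateral muscle they were 5 and 74 at 3 and 7 DPI. For contralateral against control they were 0, 49 and 0 at 3, 7 and 14 DPI, and for 28 against 3 DPI 8. The medians at 7 DPI were 0.73 against control, 2.66 against contralateral muscle and -1.85 for contralateral against control. For all genes these were 0.64, 1.48 and -0.72. The graft median at 7 DPI was 0.53, beside 0.42 for all genes. By adjusted p-value alone the numbers were 83, 59 and 59 against control at 7, 14 and 28 DPI, 82, 75 and 53 against contralateral muscle, 32, 48 and 5 for contralateral against control at 3, 7 and 14 DPI, 1 for graft at 7 DPI and 83 for 28 against 3 DPI. Calls of contralateral against control at 3 and 14 DPI were 0 and 0 with control muscles averaged per rat and 0 and 0 when the model held the compared groups only. A pseudocount of 0.1 gave 4 called against control at 28 DPI and 2 and 2 for contralateral against control at 3 and 7 DPI. Leaving out each muscle in turn gave 66 to 78 called against control at 3 DPI, 42 to 71 against contralateral muscle at 3 DPI, 1 to 2 at 14 DPI, 36 to 63 for 28 against 3 DPI, and 0 to 2 and 0 to 1 for contralateral against control at 3 and 14 DPI, with medians of 0.16 to 0.40 at 3 DPI. With the rat as replicate block (consensus correlation 0.0261), the number called was unchanged in every comparison, at 76 against control at 3 DPI. Injured and control muscles share no rat. Against contralateral muscle, which shares rats with injured muscle, 56, 10, 2 and 1 were called at 3, 7, 14 and 28 DPI. By adjusted p-value alone 55 genes instead of 53 were higher than contralateral muscle at 28 DPI. Without the read counts, depth limits cannot be given.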

Other observations

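The labels of 9 libraries conflicted, and these entered no group. For 4 running rats at 28 DPI the library title and the injury label named opposite muscles. In those 4 rats the libraries titled as injured but labelled contralateral held Rpl3 at 8.99, 7.99, 8.65 and 8.51% of its pair with Rpl3l, with ribosomal protein messages at 5.53, 6.21, 5.96 and 6.11% of TPM. The libraries titled as contralateral but labelled injured held Rpl3 at 24.0, 30.2, 32.8 and 31.9% and ribosomal protein messages at 6.35, 6.97, 6.60 and 6.38%, in the same order of rats. A contralateral library whose day conflicted with that of its rat held 10.7% and 6.68%.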
